A study of Mus musculus with 8 samples.

Results

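S100 proteins are small calcium-binding proteins with paired EF-hand helices. Most of them form dimers that open on binding calcium and then dock onto partner proteins such as annexins, non-muscle myosin and receptors. Most of their genes lie in a cluster, which in the mouse is on chromosome 3. S100a4, also called metastasin or fibroblast-specific protein 1, has been described as a gene raised by osmotic stress in inner medullary collecting duct cells, where cells face strongly hypertonic fluid in the kidney.

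The S100 family was examined by RNA sequencing in IMCD, a line of cells from the inner medullary collecting duct of the mouse. Members were the rows of the counts table whose symbol was S100, a letter and an optional number. These were 10 of the 15288 genes of the table: S100a1, S100a3, S100a4, S100a6, S100a10, S100a11, S100a13, S100a14, S100a16 and S100g. Of them, 9 passed the filter on low counts and S100a14 did not. The same pattern matched 16 genes of the mouse annotation, and S100a2, S100a5, S100a8, S100a9, S100b and S100z were not analysed here. S100a7a lies in the cluster but falls outside the pattern.

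Both groups were cultured in DMEM with serum and then kept for 12 h in DMEM without serum. The control group (4 libraries, replicates 1 to 4) had no added NaCl, and the NaCl group (4 libraries, replicates 5 to 8) had 100 mmol NaCl, an amount the labels give without a volume. All libraries came from the same cell line, and no label says whether replicates were separate cultures, so p-values measure only the spread between these libraries, which may be technical. The libraries held 35.29 to 47.57 M counts. Levels are given in CPM, which are counts scaled to library size with TMM factors.

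The label was checked against marker genes. Among the 18 collecting duct epithelial markers, Cdh16 had 639 ± 77.3 CPM in control, Krt18 had 217 CPM and Pax8 had 160 CPM (mean ± SD, n = 4). Aqp2 had 0 to 3 counts in control libraries and 8 to 15 with NaCl, and Cdh1, the gene of E-cadherin, had 0.195 CPM in control. The defining vasopressin-regulated water channel of the principal cell was thus close to 0. Mesenchymal markers ranged widely in control, from Pdgfra at 2.38 CPM, Snai1 at 4.32 CPM and Dcn at 15.8 CPM to Vim at 2204 CPM, Col1a1 at 2492 CPM and Fn1 at 2977 CPM. Thy1 and Lum were not analysed here.

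Of the 9 tested S100 genes, 6 were called (edgeR's quasi-likelihood test with Benjamini-Hochberg adjustment, threshold 0.05), against 34.1% of all 14024 tested genes. S100g, S100a4, S100a3 and S100a6 rose (4 genes, where 16.9% of all genes rose), and S100a16 and S100a11 fell (2 genes, where 17.2% of all genes fell). S100a1, S100a10 and S100a13 did not pass. The median log2 fold change of the 9 members was -0.03, beside 0.00287 over all tested genes. S100g and S100a4 rose by more than 2-fold, a size of increase called in 2.04% of all genes. The family therefore moved in different directions, with the largest changes in a pair of genes.

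Promoter windows are shown for the pair that rose most, S100g and S100a4, for S100a6, which rose less, and for S100a1, which did not pass the test. Each window holds 250 bases before and 50 bases after the annotated start in RefSeq (GRCm38.p6, 5′ to 3′ on the gene's strand). Of the 10 members, 8 had a window, and S100a10 and S100a14 had none. Capitals mark matches on either strand of TATAAA, the TATA box, or of a loose pattern for the tonicity element. That pattern is GGAAA, any 4 bases and then C, and the element is the site that the tonicity factor Nfat5 is known to bind. These windows lie at chr3:90603520-90603819 (S100a4, plus strand), chrX:162964550-162964849 (S100g, minus strand), chr3:90612644-90612943 (S100a6, plus strand) and chr3:90514281-90514580 (S100a1, minus strand).
S100a4: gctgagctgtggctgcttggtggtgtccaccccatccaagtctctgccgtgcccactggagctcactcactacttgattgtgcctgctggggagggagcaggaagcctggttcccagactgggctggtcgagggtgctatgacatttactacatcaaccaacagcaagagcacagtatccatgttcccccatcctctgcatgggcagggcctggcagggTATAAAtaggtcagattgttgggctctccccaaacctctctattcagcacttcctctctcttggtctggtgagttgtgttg
S100g: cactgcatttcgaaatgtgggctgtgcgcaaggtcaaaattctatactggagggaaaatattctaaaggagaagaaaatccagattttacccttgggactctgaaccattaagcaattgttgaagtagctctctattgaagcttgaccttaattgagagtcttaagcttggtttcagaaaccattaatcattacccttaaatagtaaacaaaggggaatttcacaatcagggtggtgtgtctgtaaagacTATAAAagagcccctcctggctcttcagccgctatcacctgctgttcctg
S100a6: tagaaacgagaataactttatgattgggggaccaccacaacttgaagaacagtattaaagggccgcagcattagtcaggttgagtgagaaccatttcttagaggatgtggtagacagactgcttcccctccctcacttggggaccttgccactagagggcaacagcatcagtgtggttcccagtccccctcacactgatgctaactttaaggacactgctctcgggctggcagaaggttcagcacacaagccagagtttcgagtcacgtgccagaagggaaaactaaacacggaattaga
S100a1: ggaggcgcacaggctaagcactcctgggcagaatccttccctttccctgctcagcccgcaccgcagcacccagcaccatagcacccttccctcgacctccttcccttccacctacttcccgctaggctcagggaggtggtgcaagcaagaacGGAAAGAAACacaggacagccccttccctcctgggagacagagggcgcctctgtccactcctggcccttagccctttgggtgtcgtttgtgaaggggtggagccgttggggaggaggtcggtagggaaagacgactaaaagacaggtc

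The S100a4 window had TATAAA at bases 220 to 225, counted from 1 at the 5′ end, and the S100g window had it at bases 251 to 256, at the annotated start. TATAAA was present in 13.6% of all 32851 windows of the same length, and the S100a6 and S100a1 windows had no match. Among the members not shown, 1 of the 4 windows of S100a3 had it, at bases 199 to 204, and those of S100a11, S100a13 and S100a16 did not. The loose pattern for the tonicity element was present in 18.7% of all windows and was not found in those of S100a4, S100g, S100a6, S100a3, S100a11 or S100a16. The S100a1 window held it at bases 153 to 162. The window of S100a13, the neighbour transcribed in the opposite direction, held the same 10 bases, at chr3:90514419-90514428. A match is a description of letters only.

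S100a4, whose protein binds the heavy chain of non-muscle myosin, rose with little spread between libraries. Its control libraries had 39.9, 47.3, 42.5 and 40.1 CPM (replicates 1 to 4), and its NaCl libraries had 141, 141, 150 and 141 CPM (replicates 5 to 8). The groups lay far apart, and the coefficient of variation within groups was 8.06% in control and 3.18% with NaCl. S100a4 rose by 1.75 on the log2 scale (SE 0.050; edgeR adjusted p = 2.47e-13), which put it at rank 92 of 14024 genes by log2 fold change. Without any single library it was between 1.72 and 1.81. Of the exon bases of S100a4 (chromosome 3, 90603771 to 90606045, plus strand, GRCm38), 51.7% are also annotated to Gm42674, a gene on the same strand that reaches from S100a3 into S100a4. Gm42674 was not analysed here, and how reads in the shared bases were counted is not given in the sources used here.

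S100g encodes calbindin-D9k, a calcium buffer known from vitamin D-regulated calcium transport in intestine and distal kidney tubule. Its control libraries had 16.4, 16.6, 14.4 and 13.9 CPM, and its NaCl libraries had 86.2, 62.7, 58.3 and 52.1 CPM. All NaCl libraries lay above all controls, and NaCl replicate 5 was the highest. Its mean rose from 15.3 ± 1.35 to 64.8 ± 14.9 CPM (SD, n = 4 each). This was a rise of 2.08 on the log2 scale (SE 0.17; edgeR adjusted p = 6.02e-05), at rank 60 of all tested genes. Its coefficient of variation was 23.0% with NaCl, against 3.18% for S100a4. Without NaCl replicate 5 its log2 fold change was 1.91, and with library number as a linear term beside the group it was 2.77 (adjusted p = 7.28e-14). S100g is the one member analysed that lies outside chromosome 3 (chromosome X, 162961992 to 162964599, minus strand). It sits within the body of Ctps2 on the opposite strand, with no shared exon bases.

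S100a3, known as a cysteine-rich protein of the hair cuticle, rose at a low level. Its control libraries had 191, 113, 99 and 88 counts, or 4.002, 2.68, 2.39 and 2.08 CPM. Its NaCl libraries had 135, 253, 250 and 228 counts, or 3.77, 5.98, 6.06 and 5.43 CPM. The groups overlapped, because control replicate 1 was above NaCl replicate 5. The log2 fold change was 0.93 (SE 0.20; edgeR adjusted p = 0.00234), and 1.16 without control replicate 1. S100a3 ends 1068 bases before S100a4 starts, on the same strand. Of its exon bases, 144 (2.54%) are also annotated to Gm42674, and 117 to Gm23464 on the opposite strand. How reads in these bases were counted is not given in the sources used here. Per 100 counts of S100a4, the control libraries held 10.02, 5.66, 5.63 and 5.19 counts of S100a3. The NaCl libraries held 2.67, 4.25, 4.04 and 3.85.

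S100a6, or calcyclin, was the abundant member that rose. Its control libraries had 412, 408, 364 and 356 CPM, and its NaCl libraries had 547, 501, 518 and 476 CPM. The groups did not overlap, and the rise was 1.33-fold (log2 fold change 0.41, SE 0.054; edgeR adjusted p = 6.87e-05). With library number as a linear term the log2 fold change was 0.68. The gene starts 6836 bases after the end of S100a4.

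**Figure D1:**
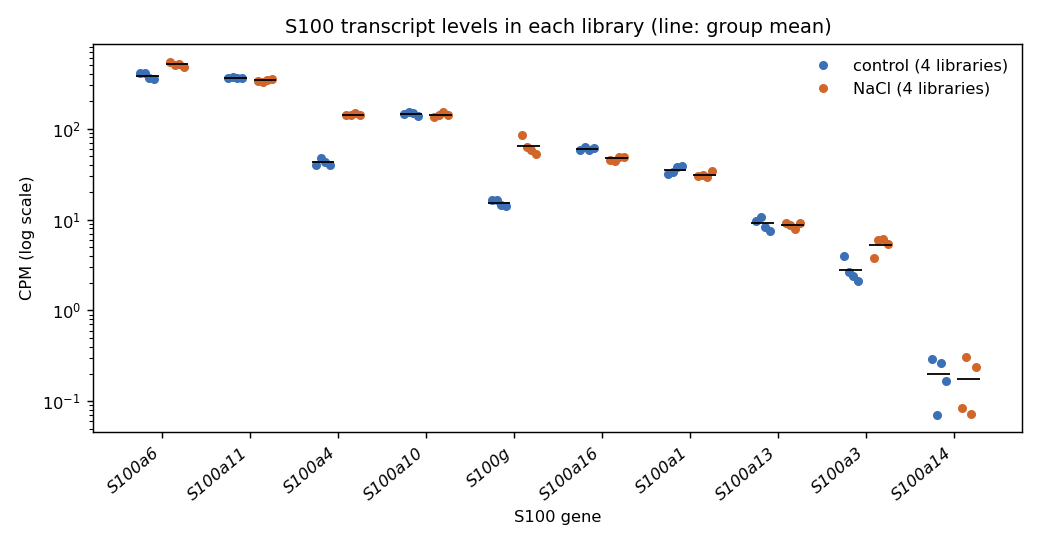
S100 transcript levels in each library, as CPM on a log scale, with blue points for the 4 control and orange points for the 4 NaCl libraries and a line for each group mean. S100a4 moved from 42.5 to 143 CPM and S100g from 15.3 to 64.8 CPM on average, while S100a10 and S100a13 overlapped between the groups.

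S100a16, a broadly expressed member, fell. Its control libraries had 58.5, 63.0, 59.0 and 61.4 CPM, and its NaCl libraries had 45.4, 44.4, 48.9 and 49.3 CPM. The groups did not overlap, and the log2 fold change was -0.36 (SE 0.048; edgeR adjusted p = 1.79e-05). S100a16 ends 17426 bases before S100a3 starts, so a gene that fell and a gene that rose follow each other on this stretch.

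S100a11, whose protein binds annexin A1, changed little. Control libraries had 364, 368, 360 and 358 CPM, and NaCl libraries had 335, 330, 343 and 353 CPM. The groups did not overlap, yet the difference was small, with a change of -0.09 on the log2 scale (SE 0.032; edgeR adjusted p = 0.0352). This call was lost with library totals alone as scaling (adjusted p = 0.055), with library number as a linear term (-0.13, adjusted p = 0.0862), at a threshold of 0.01 and in 6 of the 8 fits that left out a library. Its longest transcript shares 58.1% of its bases with each of the annotated genes Gm12854 and Gm7665 at 98% identity or more, so its counts are uncertain.

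S100a1, known for regulating calcium handling in muscle, had 31.6, 33.2, 38.2 and 38.8 CPM in control and 30.5, 30.8, 29.2 and 34.1 CPM with NaCl. The groups overlapped and the log2 fold change was -0.18 (SE 0.071; edgeR adjusted p = 0.0568). The value passed the threshold without control replicate 1 (-0.24, adjusted p = 0.0118), without control replicate 2 (-0.22, 0.0486) and without NaCl replicate 8 (-0.23, 0.0236). It also passed with library number as a linear term (-0.49, 8.27e-04) and with library number centred within each group (-0.18, 0.00569).

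S100a10, or p11, which joins annexin A2 in a complex at the plasma membrane and does not need calcium to do so, had 139 to 152 CPM in control. With NaCl it had 134 to 153 CPM. Its ranges overlapped, with a change of -0.03 on the log2 scale (SE 0.042; edgeR adjusted p = 0.58). S100a13, which takes part in the unconventional release of Fgf1, had 7.52 to 10.7 CPM in control and 7.78 to 9.26 CPM with NaCl (log2 fold change -0.05, SE 0.11; adjusted p = 0.769). S100a1 and S100a13 lie head to head, 42 bases apart, and neither passed the test. S100a14, an epithelial member, had 3 to 14 counts in control and 3 to 13 with NaCl and was not tested. S100a7a had 27 to 54 counts in control and 22 to 29 with NaCl (log2 fold change -0.38, SE 0.31; edgeR adjusted p = 0.384).

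Among the 9 tested members the groups did not overlap for 5 genes, 3 higher (S100a4, S100a6 and S100g) and 2 lower (S100a11 and S100a16). Over all tested genes 33.4% did not overlap, 16.5% higher and 16.9% lower with NaCl.

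**Figure D2:**
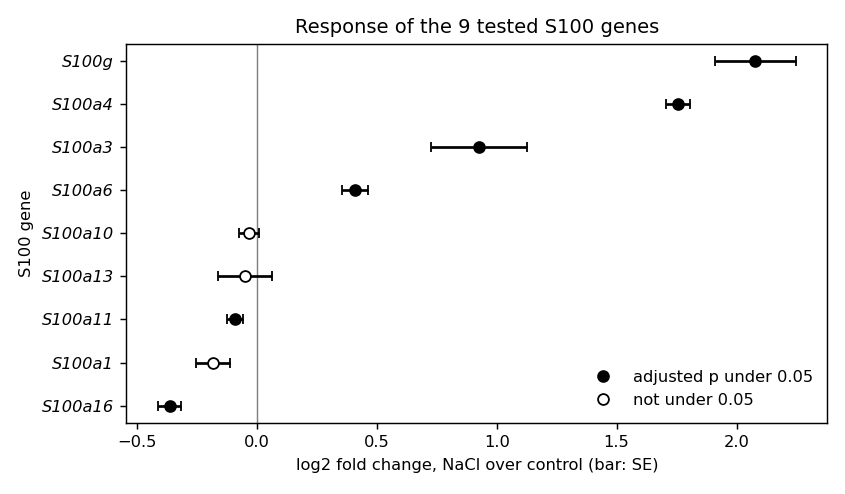
Log2 fold change (NaCl over control) of the 9 tested S100 genes, with bars for the standard error, filled points for an adjusted p-value under 0.05 and open points otherwise. S100g (2.08) and S100a4 (1.75) stand to the right, S100a3 (0.93) and S100a6 (0.41) between, and S100a16 (-0.36) at the left end.

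Whether S100a4 responded more than its relatives was tested directly, from the ratio of S100a4 counts to those of each other member within a library. Such a ratio does not depend on how libraries are scaled. The ratio was higher in all 4 NaCl libraries than in all 4 controls for 7 of 8 members. Each of these 7 had the smallest p-value that 4 against 4 libraries allow in an exact two-sided permutation test (0.0286; adjusted over the 8 comparisons, 0.0327). The change in the ratio was 4.35-fold against S100a16, 3.83-fold against S100a1, 3.60-fold against S100a11, 3.47-fold against S100a13 and 3.46-fold against S100a10. Against S100a6, the near neighbour that also rose, it was 2.54-fold (log2 1.35, SE 0.077).

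Against S100a3, on the other side, the ratio rose 1.75-fold (log2 0.81, SE 0.27). Without NaCl replicate 5 this difference was 0.66 and no longer passed (exact permutation test, adjusted p = 0.0653). The exception was S100g. Its ratio to S100a4 overlapped between the groups, with 2.43 to 2.96 counts of S100a4 per count of S100g in control and 1.64 to 2.70 with NaCl. The log2 difference was -0.30 (SE 0.17; exact permutation test p = 0.114, adjusted 0.114). Without NaCl replicate 5 it was -0.15, and without any other single library it was between -0.39 and -0.27. A difference in response between S100a4 and S100g was not detectable with these libraries, which does not show that the genes responded alike.

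**Figure D3:**
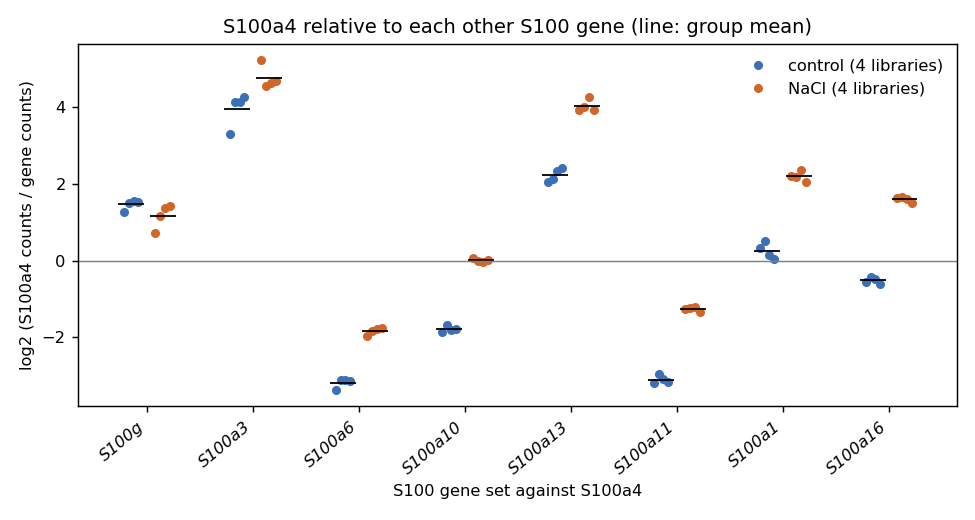
Log2 of S100a4 counts over the counts of each other member in every library, with blue points for the 4 control and orange points for the 4 NaCl libraries and a line for each group mean. All NaCl points lie above all control points for 7 members, and for S100g the groups overlap (difference -0.30).

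Levels were compared between members per kilobase of annotated exon. In control S100a11 was highest at 709 ± 8.19 CPM per kilobase, followed by S100a6 at 281 ± 21.5, S100a10 at 120 ± 4.70 and S100a4 at 72.7 ± 5.86 (SD, n = 4). S100a1, S100a16, S100g, S100a13, S100a3 and S100a14 came next, and the ranges of neighbours in this order did not overlap. With NaCl the order was S100a11 (666 ± 20.1 CPM per kilobase), S100a6 (373 ± 21.7) and S100a4 (245 ± 7.81). S100a10 was at 118 ± 6.56 CPM per kilobase. The lengths of S100a4 and S100a11 include the bases shared with Gm42674 and with Gm12854 and Gm7665. If reads there were not counted, their levels are understated. The place of S100a4 in this order is then uncertain, as is how far S100a11, already the highest, stood above the others. S100g reached 135 ± 31.1 CPM per kilobase, and its range overlapped that of S100a10. With the longest transcript as the length, S100a10 stood above S100g with NaCl (208 against 135 CPM per kilobase), and S100a11 and S100a6 overlapped. With that length S100a16 (53.6 CPM per kilobase) stood above S100a1 (52.3) in control, and the ranges of S100a1 and S100a16 overlapped in both groups.

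Summed over the 10 members, the level per kilobase rose from 1318 ± 36.4 to 1624 ± 39.5 CPM per kilobase (SD, n = 4 each; exact permutation test p = 0.0286, adjusted over 2 measures 0.0286). Control libraries lay between 1278 and 1361 and NaCl libraries between 1587 and 1673. S100a4 made up 5.51 ± 0.347% of this sum in control and 15.1 ± 0.504% with NaCl, with the same p-values in the exact permutation test. These shares carry the same uncertainty in the lengths of S100a4 and S100a11. The share of S100g was 2.42 ± 0.151% in control and 8.29 ± 1.73% with NaCl. That of S100a11 was 53.9 ± 0.864% and 41.0 ± 1.69%. The sum was also higher with S100g left out, by 203 CPM per kilobase in place of 307. In bulk RNA, a change in the number of cells that express a gene and a change in RNA per cell cannot be told apart.

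**Figure D4:**
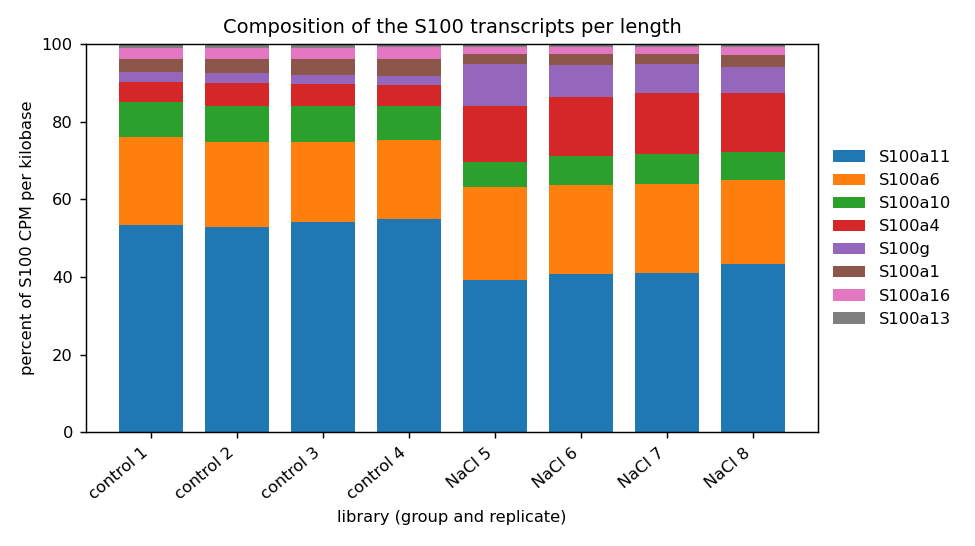
Share of each member in the summed S100 level per kilobase of exon, in percent, for each of the 8 libraries; S100a3 and S100a14, with the smallest shares, are not drawn. The S100a4 band is 5.13 to 5.95% in control and 14.5 to 15.7% in NaCl libraries.

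Genes beside the chromosome 3 cluster were compared with its members. Of 15 tested protein-coding genes that are not S100 genes and lie within 300 kb of one, 3 rose and 1 fell, with a median log2 fold change of 0.01. These 4 are 26.7% of the 15, beside 34.1% over all tested genes (16.9% higher, 17.2% lower). Within 1000 kb the balance was the other way, with 4 of 31 tested genes higher and 8 lower (38.7% called, median -0.04). All 15 genes within 300 kb have S100a1 as their nearest member, so the genes that rose could lie only on that side. Npr1, the receptor for atrial natriuretic peptide, rose from 7.14 ± 0.697 to 26.1 ± 2.79 CPM (SD, n = 4 each; 1.87 on the log2 scale, SE 0.093; edgeR adjusted p = 2.29e-10). Ilf2, which encodes a double-stranded RNA-binding protein partner, rose from 102 ± 4.18 to 163 ± 13.3 CPM (log2 fold change 0.67; adjusted p = 1.77e-07). Ints3, of the Integrator complex, rose from 107 ± 4.14 to 147 ± 6.40 CPM (log2 fold change 0.45; adjusted p = 2.10e-07). Chtop, 1.54 kb from S100a1, had a change of 0.01 on the log2 scale (adjusted p = 0.805), and Snapin, 20 kb away, had -0.11 (0.132). Rab13 fell by 0.16 on the log2 scale (adjusted p = 0.0355), a call lost in 5 of the 8 fits that left out a library.

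**Figure D5:**
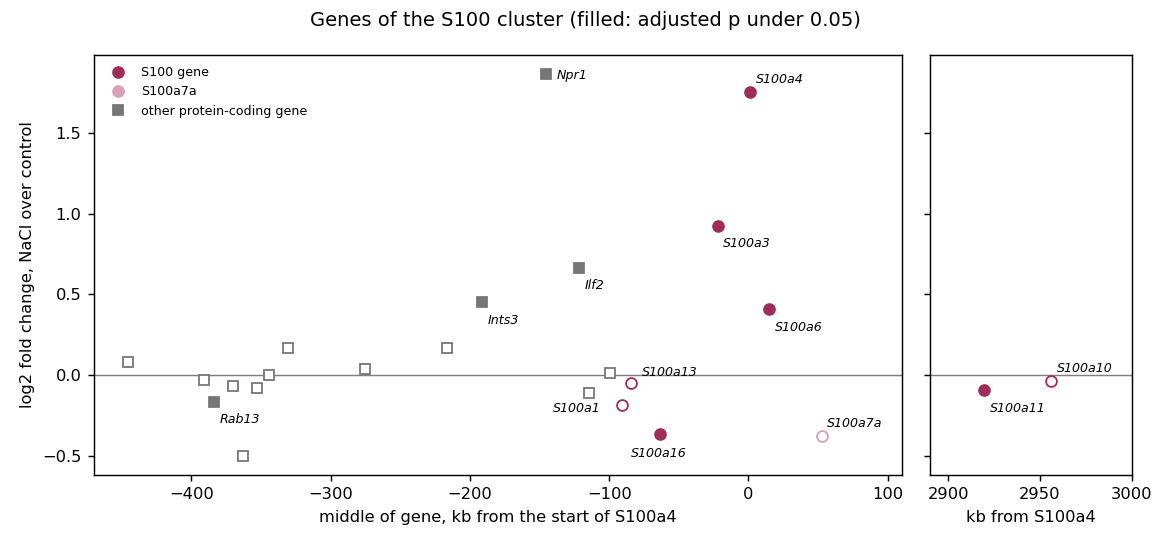
Log2 fold change of the S100 genes (circles) and of other protein-coding genes within 300 kb (squares) against the distance of the gene's middle from the start of S100a4, in kb; the right panel holds S100a11 and S100a10, and filled symbols have an adjusted p-value under 0.05. Npr1 (1.87) and S100a4 (1.75) are the highest points, and between them lie Ilf2 (0.67) and S100a3 (0.93), which rose, Snapin, Chtop, S100a1 and S100a13, which did not pass, and S100a16 (-0.36), which fell.

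Partners of the S100 proteins were examined from lists, whose counts stand beside 16.9% of genes higher and 17.2% lower over the whole table. Of 10 tested annexin genes, 1 rose, 3 fell and 6 did not pass (median log2 fold change -0.09), so the share called was near the 34.1% over all tested genes. Anxa11, whose protein binds S100A6, rose from 132 ± 8.80 to 185 ± 21.3 CPM (0.49 on the log2 scale; edgeR adjusted p = 8.62e-04), a call lost with library number as a linear term. Anxa3 fell from 351 ± 14.4 to 197 ± 12.5 CPM (log2 fold change -0.84; adjusted p = 7.72e-10), and Anxa1, the partner of S100A11, fell from 439 ± 12.9 to 351 ± 2.50 CPM (-0.32; 7.41e-07). Anxa2, the partner of S100A10, had 806 ± 38.1 CPM in control and 744 ± 96.1 CPM with NaCl (-0.12; 0.36).

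The list of S100 binding partners had 26 tested genes, of which 5 rose, 10 fell and 11 did not pass (median log2 fold change -0.07), where 16.9% of all tested genes rose and 17.2% fell. Anxa1, Anxa2, Anxa6 and Anxa11 are in this list and in that of the annexins, so the lists are not independent. Myh9, the heavy chain bound by S100A4, had 2256 ± 82.8 CPM in control and 2133 ± 86.9 CPM with NaCl (log2 fold change -0.08; edgeR adjusted p = 0.106). Cacybp, which is named for its binding to calcyclin, fell by 0.14 on the log2 scale (adjusted p = 0.0437). Its groups overlapped, with 81.4 to 92.4 CPM in control and 75.7 to 87.1 CPM with NaCl. Fgf1, the cargo of S100A13, fell from 23.6 ± 2.65 to 17 ± 0.907 CPM (-0.47; 2.20e-04). Ncl, or nucleolin, fell by 0.49 on the log2 scale (5.49e-08), and Ccn2, a secreted matrix-associated protein, fell by 0.74 (8.82e-04).

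Of 7 tested cell surface receptors, 3 rose and none fell (median log2 fold change 0.12), where 16.9% of all tested genes rose and 17.2% fell. Alcam, an adhesion molecule, rose from 101 ± 5.25 to 157 ± 12.0 CPM (log2 fold change 0.64; edgeR adjusted p = 2.24e-07), Mcam by 0.25 on the log2 scale (0.0265) and Emb by 0.25 (0.0251). Without control replicate 2 only 1 of the 7 passed. Ager, which encodes RAGE, the best known S100 receptor, had 31 to 67 counts in control and 32 to 51 with NaCl (-0.24; 0.538). Of 7 tested plasminogen system genes, relevant because S100A10 with annexin A2 binds plasminogen, 1 rose and 3 fell (median -0.06). The protease gene Plat rose (log2 fold change 0.59; 9.49e-07), while the protease gene Plau fell (-0.67; 8.15e-08).

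Of 41 tested EF-hand genes outside the S100 family, 3 rose, 8 fell and 30 did not pass (median log2 fold change -0.06), where 16.9% of all tested genes rose and 17.2% fell. Rcn1, a calcium-binding protein of the endoplasmic reticulum, fell from 127 ± 6.96 to 101 ± 2.83 CPM (-0.33; edgeR adjusted p = 1.20e-05), and Efhd2 fell from 42.6 ± 2.01 to 33.4 ± 0.524 CPM (-0.35; 3.66e-05). Ocm, or oncomodulin, fell from 0.61 to 0.147 CPM at a very low level (-2.02, SE 0.53; 0.00699). Wnt beta-catenin targets, a group to which S100a4 has been assigned, had 9 tested genes, of which 1 rose and 6 fell (median -0.21), beside 16.9% and 17.2% of all tested genes. Lef1 fell by 0.83 on the log2 scale (2.09e-05) and Cd44 by 0.70 (3.67e-09), while Fgf18 rose (1.05; 3.22e-07). Without NaCl replicate 6, and without NaCl replicate 7, 3 of the 9 fell.

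All 11 tested genes of the osmolyte and tonicity list rose, where 16.9% of all tested genes did, with a median log2 fold change of 1.13. The values for S100a4 (1.75) and S100g (2.08) were above that median. Among its tested genes with counts in both groups, Aqp1 (log2 fold change 2.86; edgeR adjusted p = 3.61e-18) and Akr1b3 (2.71; 2.26e-13) were the highest. Aqp2, with 0 to 3 counts in control and 8 to 15 with NaCl, was in the list but not tested. Slc6a12 had 0 counts in every control and 215 to 288 with NaCl, at least 90.6-fold higher against a floor of 3 counts per library, and the median of the list was 1.13 also with this bound.

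S100a4 is widely used as a fibroblast marker, so mesenchymal and leukocyte markers are given beside it. Of 18 tested mesenchymal markers, 3 rose, 6 fell and 9 did not pass, with a median log2 fold change of -0.03. Over all tested genes 16.9% rose and 17.2% fell. Their summed level was 8469 to 9277 CPM in control and 6502 to 7392 CPM with NaCl. Most of this sum and of its fall came from Fn1 (2977 to 2069 CPM), Vim (2204 to 1580 CPM) and Col1a1 (2492 to 2147 CPM). Fn1 (-0.52; edgeR adjusted p = 3.46e-05), Vim (-0.48; 5.58e-08) and Pdgfra (-0.67; 0.0332) fell, while Pdgfrb (0.70; 1.08e-06), Acta2 (0.28; 2.37e-04) and Cdh2 (0.25; 1.88e-05) rose. The 17 collecting duct markers with a row summed to 1600 to 2045 CPM in control and 2462 to 2789 CPM with NaCl. Cdh16 alone went from 639 to 1379 CPM and carried nearly all of this difference. Of the 15 tested, 4 rose and 2 fell (median log2 fold change 0.04). Those that rose were Cdh16 (1.11; 9.42e-06), Pax8 (0.54; 1.45e-06), Avpr2 (2.60; 0.00685) and Cdh1 (1.43; 0.0254). Avpr2 was very low, with 0 to 11 counts in control and 16 to 48 with NaCl. Cdh1 was also very low, with 2 to 14 and 13 to 30 counts, and its groups overlapped. Gata3 (-0.44; 0.00341) and Tfcp2l1 (-0.38; 3.47e-04) fell. Of 13 leukocyte markers, 4 had a row, with a sum of 14.7 to 18.9 CPM in control and 22.8 to 27.4 CPM with NaCl. Ptprc alone of the 4 rose, from 4.05 ± 0.346 to 13.5 ± 0.434 CPM (1.73; 5.91e-10). Their part in the S100 result was not tested.

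The genes whose pattern was most like that of S100a4 were found by Pearson's r of log2 CPM over the 8 libraries, among 10103 genes whose log2 CPM averaged 3 or more. The highest values were 0.997 for Nadk2 and 0.996 for Hspa4l, Aqp1, Ranbp3l and Plekha1. In all, 20 genes reached 0.99. Since the libraries form 2 groups, r mostly reflects the difference between them, and no p-value is given. The log2 fold changes of these 5 genes were 1.36, 1.12, 2.86, 2.89 and 1.01 in that order.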

How the data were processed

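RNA of 8 libraries of the IMCD line was analysed, 4 control and 4 NaCl. The authors deposited a table of raw counts per gene for 15288 genes, and a table of normalized values for the same genes, a signal equal to the count divided by a factor per library (0.864 to 1.145). Per the submitters' processing notes, Trim Galore 0.6.7, STAR, DESeq2 1.34.0 and build mm10 were used. The counting program and strandedness are not given in the sources used here.

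Counts were tested in R 4.3.3 with edgeR 4.0.16 (filterByExpr at a minimum count of 10, TMM, robust quasi-likelihood F test, Benjamini-Hochberg adjustment over 14024 genes, threshold 0.05). Ratios used 0.5 added to each count and exact two-sided permutation tests, in which p cannot go below 0.0286. Lengths and positions came from GENCODE M21 (GRCm38, the same build as mm10) and promoters from RefSeq. Alternatives were other scalings, filters, thresholds and library-number covariates, DESeq2 1.42.0, limma 3.58.1 (voom, and the deposited signal as log2 of the value plus 1) and leaving out each library. The test was checked on simulated counts with 200 changed genes.

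Members and lists were chosen with earlier results of these data known. Genes named were all members, their best known partners (Anxa2, Myh9, Cacybp, Anxa1 and Fgf1), the 3 called genes with the largest absolute change in each list and beside the cluster, and the 5 genes most like S100a4. A gene that this rule names is not reported here. Other genes were named after their values were seen.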

Additional observations from a re-analysis of the deposited data

Results flagged for a closer look

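Of 40 sets of 4 S100 values, 2 held a single library set off by a wide gap from the rest, and chance alone gives about 2 (1 in 20). For S100a4, NaCl replicate 7 measured 150.1 CPM against 140.8 to 141.2 CPM in the remaining NaCl libraries. Leaving this library out gave S100a4 a log2 fold change of 1.73. The log2 ratio of S100a4 to S100a3 was 3.32 in control replicate 1, where the other controls had 4.14 to 4.26, and the group difference without that library was 0.59 in place of 0.81.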

How the results depend on the processing

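S100a4 kept its direction and its call in each alternative fit (log2 fold change 1.72 to 1.81), and so did S100g (1.91 to 2.77). Over the whole table, 6030 genes were called with library number centred within each group and 3382 with it as a linear term, in place of 4789. At a threshold of 0.01, 3145 genes were called (1545 higher, 1600 lower), among them 1 lower S100 gene. Tested against a 1.5-fold change, 328 genes passed (215 higher, 113 lower), among them 2 S100 genes, both higher, and 0 lower. With library totals alone, 1 S100 gene was lower. S100a13 turned positive with library number as a linear term (0.27), without control replicate 2 (0.036) and without NaCl replicate 7 (0.0021), and ranged from -0.13 to 0.036 over the fits that left out 1 library. That linear term, with control numbered 1 to 4 and NaCl 5 to 8, gave 0 higher and 6 lower annexins, 2 higher binding partners, 1 lower receptor, 2 higher plasminogen genes and 4 Wnt targets (3 lower). Leaving out 1 library at a time gave 1 to 3 lower S100 genes, 1 to 3 receptors called, all higher (1 to 3), 4 to 6 Wnt targets (3 to 5 lower) and 0 to 1 lower genes beside the cluster. The S100a4 to S100a3 ratio then differed by 0.59 to 0.91. The causes were not tested. No paired analysis was possible because the groups share no replicate number (1 to 4 against 5 to 8). S100a14, with 3 to 14 counts per library, was too shallow to test.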
